A study of Mus musculus with 19 samples.

Results

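The phagocyte NADPH oxidase and its proton channel are described here through 6 genes: Cybb, Cyba, Ncf1, Ncf4, Rac2 and Hvcn1. They were chosen by symbol from the 14996 genes of the deposited expression table, and all 6 were in it. The libraries are mRNA-seq of cortex from 19 hemizygous APP23 mice, 1 library per mouse, in 4 groups: 5 HFD females, 6 ND females, 4 HFD males and 4 ND males. Every mouse, ND controls included, carries a human APP751 transgene with the Swedish mutation of familial Alzheimer's disease on a C57BL/6 background. In this line the murine Thy1 promoter drives the transgene in neurons, and there was no group without it. HFD mice ate a Western diet with 40% of its calories from milk fat and corn oil, ND mice ate standard chow, and both diets lasted 3 months from a mean age of 11.7 months. The animals were perfused before dissection, and the tissue label of the samples reads brain while the extraction notes say cortex.

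The phagocyte oxidase is an enzyme of the plasma and phagosome membrane that moves electrons from NADPH to oxygen and makes superoxide. Cybb (gp91phox, NOX2) is the catalytic subunit and is held in the membrane by its partner Cyba (p22phox), while subunits such as Ncf1 (p47phox) and Ncf4 (p40phox) wait in the cytosol and dock, together with a Rac GTPase, when the cell is stimulated. Each electron carried out leaves a proton behind, and the voltage-gated proton channel Hvcn1 lets protons follow, which keeps the cell from becoming too acid and too depolarised. Neutrophils hold the most of this enzyme, and in brain tissue without blood cells microglia are its main site. In bulk tissue, more cells of a type and more RNA per cell cannot be told apart, and this holds for every level below.

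The promoters of Cybb, Ncf1 and Cyba are shown because factors of myeloid cells are known to control genes of the phagocyte oxidase. They are 300-base RefSeq sequences of build GRCm38.p6, each running from 250 bases before the annotated start to 50 bases after it, all 3 genes lie on the minus strand, and Ncf4, Rac2 and Hvcn1 are named only. The reads were counted on mm9, so these positions belong to the sequences and not to the counts. Capitals mark matches, on either strand, to GAGGAA (the core bound by PU.1), GAAANNGAAA (an interferon response element), GGAANNGAAA (the composite of ETS and IRF factors) and CCAAT.
Cybb, chrX:9469275-9469574: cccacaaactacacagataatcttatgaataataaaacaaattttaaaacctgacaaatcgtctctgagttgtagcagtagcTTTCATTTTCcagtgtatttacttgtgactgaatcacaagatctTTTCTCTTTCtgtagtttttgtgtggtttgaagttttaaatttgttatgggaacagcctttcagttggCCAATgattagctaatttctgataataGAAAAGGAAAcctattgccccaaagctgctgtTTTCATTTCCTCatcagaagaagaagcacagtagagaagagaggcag
Ncf1, chr5:134229576-134229875: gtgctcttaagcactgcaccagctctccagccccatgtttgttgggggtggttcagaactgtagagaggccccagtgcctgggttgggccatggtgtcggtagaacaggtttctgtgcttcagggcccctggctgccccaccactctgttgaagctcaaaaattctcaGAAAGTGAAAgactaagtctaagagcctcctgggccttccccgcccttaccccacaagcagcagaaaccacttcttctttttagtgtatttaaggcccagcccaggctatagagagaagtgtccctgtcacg
Cyba, chr8:122432891-122433190: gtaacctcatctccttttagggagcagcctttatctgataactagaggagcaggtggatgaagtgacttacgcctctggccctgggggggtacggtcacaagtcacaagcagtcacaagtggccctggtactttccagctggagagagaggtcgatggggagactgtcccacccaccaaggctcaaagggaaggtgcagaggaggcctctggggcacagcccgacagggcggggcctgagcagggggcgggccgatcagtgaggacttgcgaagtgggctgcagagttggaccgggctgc
Cybb held matches to all 4 motifs. GAAANNGAAA occurred 3 times, GGAANNGAAA overlapped GAGGAA just after the start, and a CCAAT lay 56 bases before it. Ncf1 held 1 GAAANNGAAA, and Cyba held none of the 4 strings. Over 27025 promoters of the same length, GAGGAA was present in 28.3%, GAAANNGAAA in 3.49%, GGAANNGAAA in 2.79% and CCAAT in 37.9%. A match describes letters and was not tested as a binding site.

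Library totals ran from 9308206 to 17178044 reads, and every female library (11727151 or more) was deeper than every male library (10844280 or fewer), so sex and depth cannot be told apart. Of the marker lists used to check the tissue, cortical excitatory neuron genes summed to between 4300 and 6150 RPM (read counts over the library total, brought to the same total in all libraries) over all mice, and homeostatic microglia genes to between 465 and 898 RPM. Libraries differed in marker genes of blood cells. Neutrophil genes (S100a8, S100a9, Ngp, Ltf and Csf3r, 5 of 12 listed genes being in the table) summed to 111 RPM in HFD female F1063 and to between 7.22 and 17.2 RPM in the other 18 mice. Csf3r alone gave 17.7 RPM of the sum in F1063, 16.3 of 17.2 RPM in HFD female F1252 and 6.86 of 15.5 RPM in HFD male F1145. Whether Csf3r reads came from neutrophils was not tested. Genes of erythrocytes (5 of 7 in the table) summed to 4.5 to 93.4 RPM in HFD females, 0.767 to 10.2 RPM in ND females, 4.15 to 39 RPM in HFD males and 3.86 to 20.8 RPM in ND males. They were highest in F1063, followed by HFD females F1076 (64.2 RPM) and F1252 (29.5 RPM), with HFD male F1065 (39 RPM) between these, while 14 of the other 15 mice were at 10.8 RPM or lower and ND male F1080 was at 20.8 RPM. Since neutrophils carry the oxidase, diet results below are also given without F1063.

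Per kilobase of exon, which allows levels to be compared between genes, Cyba was the most abundant of the 6 genes (8.92 ± 2.94 RPM per kb, SD, n = 19), followed by Hvcn1 (4.22 ± 0.72), Ncf1 (3.51 ± 0.93), Rac2 (1.11 ± 0.38), Ncf4 (0.783 ± 0.353) and Cybb (0.471 ± 0.276). Neighbours in this order kept it in 18 of 19 libraries for Cyba over Hvcn1, in 16 for Hvcn1 over Ncf1, in 18 for Rac2 over Ncf4 and in 18 for Ncf4 over Cybb. Rac1, the Rac GTPase found in all cells, stood far above at 80.3 ± 4.99 RPM per kb. Per kilobase the mRNA of the catalytic subunit was thus the scarcest of the 6, at 8 to 79 reads per library. The mRNA of Ncf4 was counted even less often, at 5 to 37 reads. Their order rests on the exon lengths used, 4752 bases for Cybb and 1464 for Ncf4. These lengths are from GENCODE M21 while reads were counted on mm9, and other lengths were not tried.

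On HFD most of the 6 genes were higher than on ND, above all Cybb. With both sexes in 1 model, 5 of the 6 genes passed an unadjusted p of 0.05, all higher on HFD, where 5.99% of the 14934 genes tested did so and 6.3% were lower, so that 48.7% of all calls were higher on HFD. With library totals as the only scaling that share was 35.3%, and the same count of 5 members was called. Cybb was 1.91-fold higher, Ncf1, Ncf4 and Cyba were 1.31-, 1.33- and 1.29-fold higher, and Hvcn1 was 1.19-fold higher, while Rac2 (1.22-fold, adjusted p = 0.485) did not pass. None passed an adjusted p of 0.05 in edgeR's quasi-likelihood test, nor did any other gene, and DESeq2 passed 1 of the 6, Cybb (adjusted p = 0.0206, the lowest of 31 alternatives whose highest was 0.699), with 4 at an unadjusted p under 0.05. At that unadjusted threshold DESeq2 called 840 of all genes higher and 950 lower, and its share past an adjusted p was not counted. The median log2 fold change of the 6 genes was 0.38, against 0.002 over all genes tested. Without F1063 the count was 3 (Cybb, Ncf1 and Hvcn1), and without HFD female F1252 it was 3 as well, of the same genes. Of the other libraries with many erythrocyte reads, omission of F1076 left 5 calls and that of F1065 left 4. Without F1063, F1252, F1076 or F1065, 803, 864, 895 and 770 of all genes were called higher, in that order, against 894.

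**Figure D1:**
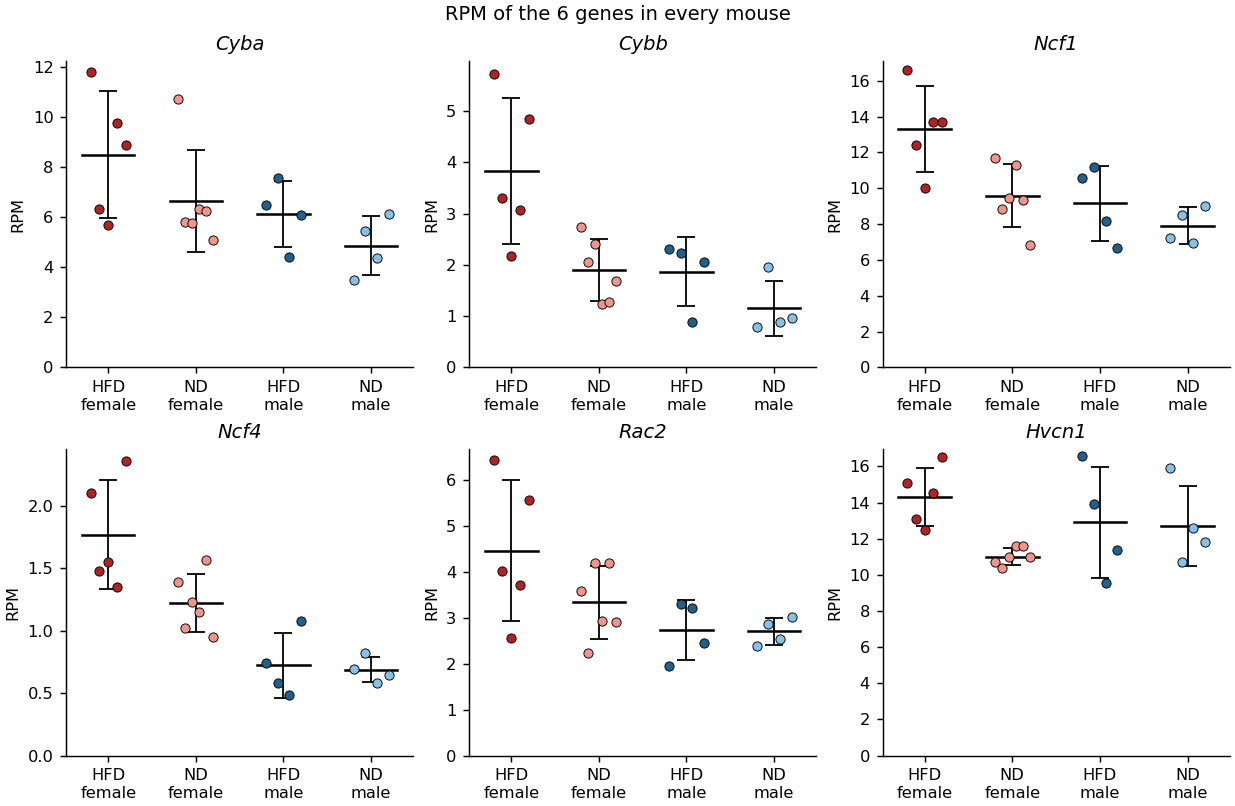
RPM of each of the 6 genes (vertical axes from 0) in every mouse, by group; points are mice, horizontal lines are group means and bars are SD (n = 5 HFD females, 6 ND females, 4 HFD males, 4 ND males). For Hvcn1 all 5 HFD females (12.5 to 16.5 RPM) lie above all 6 ND females (10.4 to 11.6 RPM), and for Ncf4 every female lies above every male on the same diet. Ncf4 had only 5 to 11 reads per male library, and how many of all genes separate in these ways was not counted.

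Cybb, the catalytic subunit, had 5.72, 3.31, 2.17, 3.08 and 4.85 RPM in the HFD females, against 1.23, 1.87 and 2.73 RPM as the lowest, median and highest of the 6 ND females. Of the 5 HFD females, 4 exceeded every ND female, and F1094 at 2.17 RPM was the exception. The log2 fold change in females was 1.02 (SE 0.27, adjusted p = 0.384 in edgeR's quasi-likelihood test), and an exact two-sided permutation test gave p = 0.013. In males it was 2.31, 2.23, 0.879 and 2.06 RPM on HFD, against 0.793, 1.95, 0.877 and 0.967 RPM on ND. On HFD 3 of the 4 males exceeded every ND male, while F1129 lay among the ND values. The log2 fold change in males was 0.74 (SE 0.37, adjusted p = 0.611), and the exact two-sided permutation p of 0.114 compares with 0.0286 as the smallest that 4 against 4 mice allow. Over both sexes it was 0.93 (SE 0.22, adjusted p = 0.126), and Cybb ranked 28th by p among the genes higher on HFD. With diet labels exchanged within each sex, the exact two-sided permutation p of Cybb over both sexes was 0.00353. Without F1063 it kept its call, at 0.80 (SE 0.22, adjusted p = 0.213) over both sexes and 0.83 (SE 0.26, adjusted p = 0.422) in females.

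Cyba, which holds the catalytic subunit in the membrane, had 11.8, 6.33, 5.67, 9.75 and 8.88 RPM in HFD females, against 5.07, 6.01 and 10.7 RPM as the lowest, median and highest in ND females. The groups overlapped, since only 1 HFD female exceeded ND female A1092, whose 10.7 RPM was far above the other ND females. In males there were 6.46, 7.57, 4.39 and 6.07 RPM on HFD, against 3.47, 5.44, 4.38 and 6.12 RPM on ND. The log2 fold change was 0.35 in females (SE 0.22, adjusted p = 0.7), 0.37 in males (SE 0.21, adjusted p = 0.641) and 0.36 over both sexes (SE 0.16, adjusted p = 0.352). The unadjusted call over both sexes was lost in 12 of the 19 omissions of a single mouse (without F1063, 0.27, adjusted p = 0.528), and the exact permutation test within sex gave p = 0.0523. Without A1092 the difference in females was 0.55 (adjusted p = 0.259) and passed the unadjusted threshold, which it did not with all 11 mice.

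Ncf1, the organiser whose phosphorylation starts assembly, had 16.6, 12.4, 10.01, 13.7 and 13.7 RPM in HFD females, against 6.83, 9.41 and 11.7 RPM as the lowest, median and highest in ND females. All but F1094 of the HFD females exceeded every ND female. Its log2 fold change in females was 0.48 (SE 0.14, adjusted p = 0.404), with an exact two-sided permutation p of 0.0152. HFD males had 10.6, 11.2, 8.2 and 6.66 RPM, against 7.23, 8.51, 6.92 and 9.02 RPM in ND males. The male groups overlapped, and the lowest value of all 8 was that of an HFD male. The difference in males was 0.25 (SE 0.18, adjusted p = 0.687), and over both sexes it was 0.39 (SE 0.12, adjusted p = 0.181). Without F1063 Ncf1 kept its unadjusted call over both sexes at 0.33 (SE 0.11, adjusted p = 0.287).

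Ncf4, which tethers the assembled complex to phagosome lipids, had 2.1, 1.48, 1.55, 1.35 and 2.36 RPM in HFD females, against 0.947, 1.19 and 1.57 RPM as the lowest, median and highest in ND females. Only 2 HFD females exceeded every ND female, but 4 of 6 ND females lay below every HFD female. The log2 fold change in females was 0.53 (SE 0.20, adjusted p = 0.516), with an exact two-sided permutation p of 0.0195. HFD males had 0.738, 0.583, 0.488 and 1.08 RPM, against 0.694, 0.821, 0.585 and 0.645 RPM in ND males. These are 5 to 11 reads per library, too few for the filter on low counts in the fit of males alone, and the counting error of 36.5% to 38.5% was as large as or larger than the spread between mice. Over both sexes the difference was 0.41 (SE 0.17, adjusted p = 0.304). It lost its unadjusted call at 0.36 without F1063 (adjusted p = 0.445) and at 0.31 without F1252 (adjusted p = 0.459).

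Rac2, the Rac GTPase of blood and microglial cells, had 6.44, 4.01, 2.56, 3.72 and 5.56 RPM in HFD females, against 2.22, 3.25 and 4.19 RPM as the lowest, median and highest in ND females. The groups overlapped, with 2 HFD females above every ND female. HFD males had 1.94, 3.3, 3.22 and 2.45 RPM, against 2.38, 2.87, 2.53 and 3.01 RPM in ND males, and here HFD mice held both the highest and the lowest values. The log2 fold change was 0.42 in females (SE 0.22, adjusted p = 0.645), 0.05 in males (SE 0.22, adjusted p = 0.959) and 0.29 over both sexes (SE 0.16, adjusted p = 0.485). Rac2 passed an unadjusted p of 0.05 in none of these fits, but it did over both sexes without HFD female F1094 (0.37, adjusted p = 0.378) or without HFD male A1095 (0.35, adjusted p = 0.393). Without F1063, which had the highest Rac2 value, the difference fell to 0.18 over both sexes (SE 0.15, adjusted p = 0.707). In females it then fell to 0.25 (SE 0.21, adjusted p = 0.73).

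Hvcn1, the proton channel, separated the diets completely in females. HFD females had 15.1, 13.1, 12.5, 14.5 and 16.5 RPM, against 10.4, 10.99 and 11.6 RPM as the lowest, median and highest in ND females, so that all 5 lay above all 6. How many of all genes separate the diets in this way was not counted. Between ND females the spread was 4.39%, below the counting error of 7.86%. The log2 fold change was 0.38 (SE 0.08), and Hvcn1 ranked second by p among the genes higher on HFD in females. That rank is from the fit of females alone. In edgeR's quasi-likelihood fit of all 4 groups the same 0.38 had an SE of 0.11 (adjusted p = 0.294). With females alone the adjusted p of Hvcn1 was 0.346 in edgeR's quasi-likelihood test and 0.0231 in DESeq2, the lowest of 23 alternatives whose highest was 0.796. The share of all genes that DESeq2 passed in females was not counted. The exact two-sided permutation p of 0.00216 is the smallest that 5 against 6 mice allow. Without F1063 the fold change kept its unadjusted call at 0.36 (adjusted p = 0.422). HFD males had 16.6, 13.9, 9.57 and 11.4 RPM, against 15.9, 10.7, 12.6 and 11.8 RPM in ND males, and the groups overlapped throughout. In males the difference was 0.05 (SE 0.17, adjusted p = 0.944), and over both sexes 0.25 (SE 0.09, adjusted p = 0.249). The exons of Hvcn1 overlap those of Tctn1 on the opposite strand, and no strand setting of the counting is given in the sources used here, so reads of the overlap could belong to either gene. Tctn1 itself had a log2 fold change of 0.06 in females (SE 0.11, adjusted p = 0.912).

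**Figure D2:**
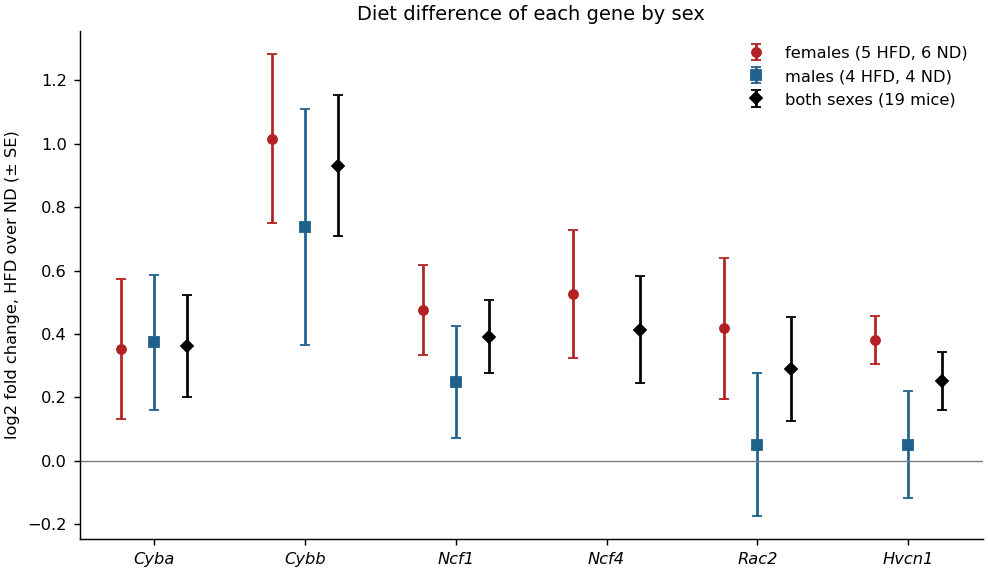
Log2 fold change of HFD over ND with its SE (vertical axis) for each gene in females, in males and over both sexes, from edgeR's quasi-likelihood fits. Cybb is highest at 1.02 in females and 0.74 in males, and Rac2 and Hvcn1 are at 0.42 and 0.38 in females and at 0.05 each in males; Ncf4 has no value in males because its counts were too low.

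Within females 4 of 6 genes passed an unadjusted p of 0.05 (Cybb, Ncf1, Ncf4 and Hvcn1), where 3.92% of 14756 genes were called higher on HFD. Within males none of the 5 genes tested passed in edgeR's quasi-likelihood test or in DESeq2, where 4.2% of 14293 genes were called higher. All 5 had positive log2 fold changes in males, with a median of 0.25 against −0.001 over all genes tested. Leaving out HFD male F1129 raised the count to 2 (Cyba and Cybb), and leaving out ND male F1080 (Cybb) or HFD male F1145 (Ncf1) raised it to 1. Over all genes these omissions gave 521, 853 and 692 called higher, in that order, against 601 with every male. Whether the sexes differed was tested by an interaction term, which called 5.21% of all genes in either direction and none of the 6. The largest was that of Ncf4 (0.42, SE 0.38, adjusted p = 0.925), followed by Rac2 (0.37, SE 0.34, adjusted p = 0.924) and Hvcn1 (0.33, SE 0.18, adjusted p = 0.903), and that of Cyba was −0.02 (SE 0.34). A diet difference confined to females was therefore not shown for any of them. The interaction of Hvcn1 passed an unadjusted p of 0.05 once single males were left out, at 0.47 without HFD male A1095 (adjusted p = 0.768) and 0.40 without ND male F1080 (adjusted p = 0.614).

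Rac1, which can take the place of Rac2 in the complex, was at 316 to 361 RPM in HFD females and 301 to 345 RPM in ND females, and at 351 to 368 RPM in HFD males and 325 to 377 RPM in ND males. Its small difference over both sexes passed the unadjusted threshold at 0.08 (SE 0.04, adjusted p = 0.326).

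Females had more of the 5 oxidase mRNAs than males in the model over both diets, and Hvcn1 did not follow. There 5 of 6 genes were higher in females at an unadjusted p of 0.05, where 14.4% of 14934 genes were, and 3 of 6 (Ncf4, Cybb and Ncf1) passed an adjusted p of 0.05, where 6.37% of genes did. DESeq2 passed 5, as did edgeR without HFD female F1094. For those fits the share of all genes past an adjusted p was not counted. Ncf4 had the largest difference, with a log2 fold change of female over male of 1.08 (SE 0.18, adjusted p = 0.00104 in edgeR's quasi-likelihood test). All 5 HFD females (1.35 to 2.36 RPM) exceeded all 4 HFD males (0.488 to 1.08 RPM), and all 6 ND females (0.947 to 1.57 RPM) exceeded all 4 ND males (0.585 to 0.821 RPM). The male values are 5 to 11 reads per library, with a counting error of 36.5% to 38.5%. Ncf4 missed the filter on low counts in males alone, so this fit kept it through its counts in females. How many of all genes separate the sexes in this way was not counted. Cybb, which lies on the X chromosome, differed by 0.90 (SE 0.24, adjusted p = 0.0178), Ncf1 by 0.42 (SE 0.12, adjusted p = 0.03), Rac2 by 0.52 (SE 0.17, adjusted p = 0.0553) and Cyba by 0.47 (SE 0.17, adjusted p = 0.0728). For Hvcn1 the difference was −0.02 (SE 0.09, adjusted p = 0.927). Rac1 went the other way, at −0.10 (SE 0.04, adjusted p = 0.0802). Since females were also the deeper libraries, the part of depth in these differences cannot be told apart from that of sex.

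**Figure D3:**
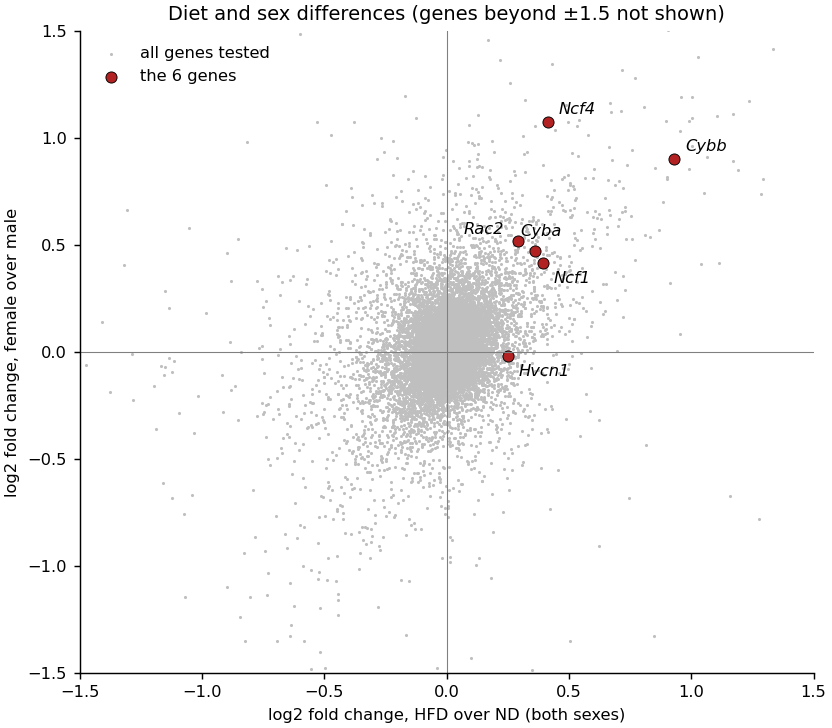
Log2 fold change of HFD over ND over both sexes (horizontal axis) and of female over male (vertical axis) for the genes tested in grey and the 6 genes in red, both from the same 19 libraries. Cyba, Cybb, Ncf1, Ncf4 and Rac2 lie above 0 on both axes, and Hvcn1 lies at 0.25 for diet and −0.02 for sex.

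The oxidase genes tended to be high or low in the same mice. Among HFD females F1063 was highest for 4 of 6 genes (Cyba, Cybb, Ncf1 and Rac2), F1252 for Ncf4 and Hvcn1, and F1094 was lowest for 5. Among ND females A1092 was highest for Cyba, Cybb and Ncf1, and among HFD males F1129 was lowest for 4. Over the 19 libraries the 10 pairs among Cyba, Cybb, Ncf1, Ncf4 and Rac2 had Pearson's r of 0.611 to 0.848 (median 0.674) between log2 CPM values, highest for Cyba with Ncf1. Pairs with Hvcn1 had 0.181 to 0.49. After the 4 group means were removed the range was 0.127 to 0.76 among the oxidase genes and −0.03 to 0.363 with Hvcn1. Without F1252 and F1063, the mice with the most extreme Rac2 values, r of Rac2 with the other 4 oxidase genes was 0.283 to 0.469. These are descriptions, as the libraries share the groups, the depth difference between sexes and the tissue dissection.

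The 3 genes most like each member by Pearson's r over the 19 libraries, out of 14927 ranked, were for Cyba Grn (0.906), Trem2 (0.897) and Cd52 (0.896), for Cybb Apobr (0.916), Lyz2 (0.914) and Csf3r (0.91), and for Ncf1 Itgb5 (0.891), Clec5a (0.89) and Ctsd (0.885). Lyz2 is the lysozyme of myeloid cells, Trem2 a lipid receptor of microglia and Ctsd a lysosomal protease. For Ncf4 they were Tspo (0.91), Gm3150 (0.861) and Klk6 (0.858), and for Rac2 Csf2rb (0.865), Spi1 (0.852) and Gm10073 (0.818). Spi1 encodes PU.1, and Csf2rb is a receptor chain for myeloid growth factors. For Hvcn1 the closest genes were D930048N14Rik (0.77), Tgif1 (0.744) and Edem1 (0.738), lower values than the best of any other member. Of the 3 nearest to Hvcn1, Tgif1 had a log2 fold change on HFD of 0.57 in females (SE 0.18, adjusted p = 0.46) and 0.06 in males (SE 0.36, adjusted p = 0.969). Mean D930048N14Rik was 4.54 RPM on HFD and 3.71 on ND in females, and 3.97 and 3.8 in males. Mean Edem1 was 29.5 and 27.0 RPM in females, and 28.5 and 27.7 in males. These genes were picked by r over the same libraries, group differences included, so a pattern shared with Hvcn1 is partly built in.

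Microglia genes moved with the members. Of 14 homeostatic microglia genes 11 were higher on HFD over both sexes at an unadjusted p of 0.05 and none lower (median log2 fold change 0.28, none at an adjusted p of 0.05), the smallest p being those of Cx3cr1 (0.26), Csf1r (0.22), P2ry13 (0.25) and Trem2 (0.68). The paper reports that Trem2 mRNA correlated with plaque staining, and the list, its mean and the covariate below were not tried without Trem2. The sum of the 14 was 583 to 898 RPM in HFD females and 560 to 767 RPM in ND females, and 493 to 721 RPM in HFD males and 465 to 530 RPM in ND males. F1063 was highest among HFD females and A1092 highest among ND females, as for several members. The mean log2 CPM of the list had Pearson's r of 0.873 with Ncf1, 0.869 with Cyba, 0.82 with Cybb, 0.711 with Rac2, 0.695 with Ncf4 and 0.496 with Hvcn1. After the 4 group means were removed, r was 0.774 for Cyba, 0.758 for Ncf1, 0.579 for Cybb and also for Hvcn1, 0.534 for Rac2 and 0.217 for Ncf4, so that Ncf4 and not Hvcn1 was lowest. The mean of the plaque-associated microglia genes had a higher r with Cybb (0.891, and 0.777 without group means) and with Ncf4 (0.737, and 0.352). For Rac2 the erythrocyte genes had 0.633, and 0.685 without group means. Spearman's rho of that pair was 0.454, and without F1252 and F1063 Pearson's r was 0.398. With the homeostatic mean as a covariate none of the 6 genes passed over both sexes, with log2 fold changes of 0.48 for Cybb (adjusted p = 0.699), 0.11 for Ncf1 (adjusted p = 0.851) and −0.06 for Cyba (adjusted p = 0.949). Within females 2 passed an unadjusted p of 0.05, Cybb at 0.47 and Hvcn1 at 0.30 (adjusted p = 0.796 for each). In that fit 406 of 14756 genes were called higher on HFD and 477 lower. For female against male with the covariate only Ncf4 passed an unadjusted p of 0.05, at 0.90 (adjusted p = 0.0598). There 1562 of 14934 genes were called higher in females and 1235 lower, so 1 member among 6 is little beyond that share. The covariate and the members come from the same RNA, and whether cell number or RNA per cell moved was not tested.

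**Figure D4:**
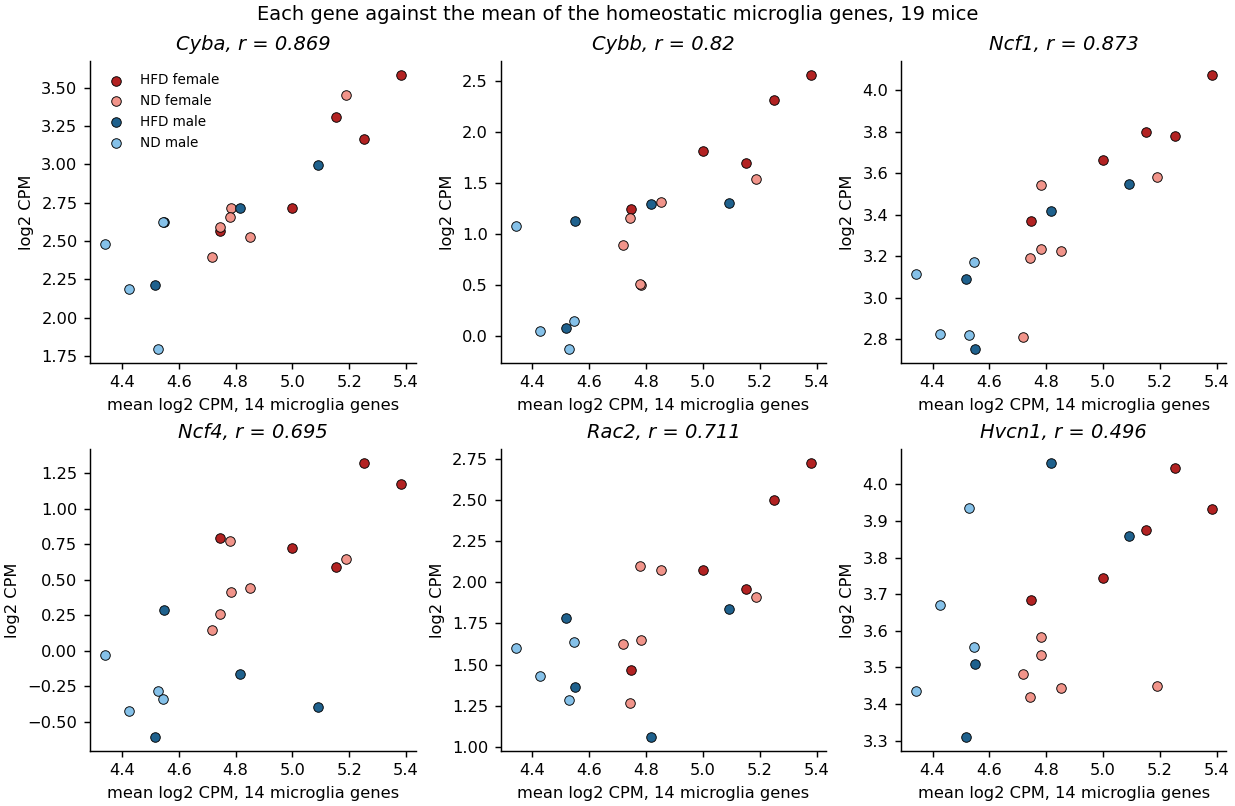
Log2 CPM of each of the 6 genes (vertical axes, each with its own range) against the mean log2 CPM of 14 homeostatic microglia genes (horizontal axes) in the 19 mice, coloured by group, with Pearson's r in each title. Ncf1, Cyba and Cybb follow the mean most closely at 0.873, 0.869 and 0.82, and Hvcn1 is at 0.496; with group means removed Hvcn1 is at 0.579 and Ncf4 lowest at 0.217.

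Other cells that could carry the members were checked by their markers. Of the plaque-associated microglia genes 10 of 14 were higher and none lower (smallest p for Ctsb 0.20, Ctsd 0.36, Ccl6 1.23 and Ccl3 1.12). Border macrophage genes gave 0 of 6 in either direction, with sums of 24.4 to 37.9 RPM in HFD females and 26.8 to 47.4 RPM in ND females. Their defining genes Mrc1 and Cd163 were at log2 fold changes of −0.16 (adjusted p = 0.814) and −0.12 (adjusted p = 0.847). All 4 neutrophil genes tested were higher, and S100a8 had 25.0 RPM in F1063 against 0.155 to 2.16 RPM in the other 18 mice. In females this direction rested on F1063 for 3 of these genes. The 4 HFD females other than F1063 had 0.155 to 0.511 RPM of S100a8, 0.155 to 0.706 RPM of S100a9 and 0.0639 to 0.513 RPM of Ngp, against 0.171 to 1.23, 0.171 to 1.35 and 0.0853 to 0.879 RPM in ND females, and only Csf3r, which was among the genes most like Cybb, had a higher range (8.31 to 16.3 RPM, against 6.07 to 11.1 RPM in ND females). All 5 erythrocyte genes tested were higher, with Hbb-bs at 2.51, Hba-a2 at 2.33, Hbb-b1 at 2.25 and Alas2 at 1.92. Of the B cell genes Cd22 (1.05) and Ighm (0.42) were in the table and higher, while other listed genes were not in it, and Cd22 is also a gene of microglia. Monocyte genes (Fn1, Vcan) and T cell genes (Cd4, Lck) gave no call. The share of blood cells in the members' differences was tested only by leaving out single mice.

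The genes that act around the oxidase were read by their roles. Among receptors and adaptors that start the burst, 9 of 15 were higher on HFD and none lower (median log2 fold change 0.40). Among the 9 were the signalling adaptors Fcer1g (0.50, SE 0.14) and Tyrobp (0.66, SE 0.19), the inhibitory Fc receptor Fcgr2b (0.40, SE 0.12) and the fungal glucan receptor Clec7a (1.25, SE 0.42). In females Clec7a was at 8.09 ± 3.82 RPM on HFD and 4.41 ± 2.5 RPM on ND, and in males at 3.65 ± 3.58 RPM on HFD and 0.638 ± 0.234 RPM on ND (SD). Clec7a also stands in the list of plaque-associated microglia genes.

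Helpers of the oxidase gave 4 of 11 higher and none lower (median 0.08). These were Arhgdib (0.28, SE 0.09), the inhibitor that holds Rac2 in the cytosol, Nrros (0.29, SE 0.10), an endoplasmic reticulum protein that limits Cybb, Prdx6 (0.16, SE 0.06), a peroxiredoxin that also supplies the oxidase with lipid signals, and Pik3cg (0.29, SE 0.14), a lipid kinase of myeloid cells. Mean Prdx6 was 256 RPM on HFD and 214 on ND in females, but 194 and 198 in males. At an unadjusted p of 0.05 the interaction term called 3 of the 11 helpers, with larger diet differences in females. It called 5.21% of all genes in either direction. BC017643, the chaperone of the membrane pair, was at −0.05 (adjusted p = 0.816). Of the Rac exchange factors and oxidase kinases 3 of 15 were higher and 1 lower (median 0.01). Vav1 (0.51, SE 0.12), Prkcb (0.18, SE 0.07) and Dock2 (0.27, SE 0.11) were higher. Vav1 and Dock2 act in blood lineage cells, while Prkcb is also abundant in neurons. Prkcd, a kinase that phosphorylates Ncf1 and is also abundant in some neurons, was lower at −0.75 (SE 0.23, adjusted p = 0.204), with 11.7 ± 2.14 RPM in HFD females and 20.2 ± 7.18 RPM in ND females.

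Myeloid transcription factors gave 5 of 12 higher and none lower, among them Irf5 (0.32, SE 0.10) and Cebpa (0.30, SE 0.11). Spi1, the source of PU.1, was also higher at 0.36 (SE 0.17, adjusted p = 0.369). Irf8, which acts with PU.1, was at 0.32 (SE 0.18, adjusted p = 0.491).

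For the genes that deal with the products of the oxidase the counts were near the shares over all genes tested (5.99% higher and 6.3% lower). Of 13 enzymes of superoxide and peroxide disposal 1 was higher, Hmox1 (0.22, SE 0.10), and 1 lower, Prdx2 (−0.07, SE 0.03), with a median of 0.02, and the superoxide dismutases Sod1, Sod2 and Sod3 were at −0.01, 0.02 and 0.04. Mean Hmox1 was 8.84 RPM on HFD and 6.84 on ND in females, but 6.08 and 6.39 in males. Of 11 charge and pH partners of the proton channel 1 was higher, the sodium-proton exchanger Slc9a9 (0.12, SE 0.05), and 1 lower, the chloride-proton exchanger Clcn5 (−0.24, SE 0.09), with a median of −0.0004. Cortical excitatory neuron genes gave 0 of 9 in either direction. Astrocyte genes gave Gfap higher (0.54) and Gja1 lower (−0.19) of 7, and endothelial genes gave Tek (0.20), Ly6c1 (0.26) and Slco1a4 (0.19) higher of 8. Mean Slco1a4 was 51.3 RPM on HFD and 40.7 on ND in females, but 48.5 and 50.9 in males. No gene of any list passed an adjusted p of 0.05 for diet over both sexes in edgeR's quasi-likelihood test.

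**Figure D5:**
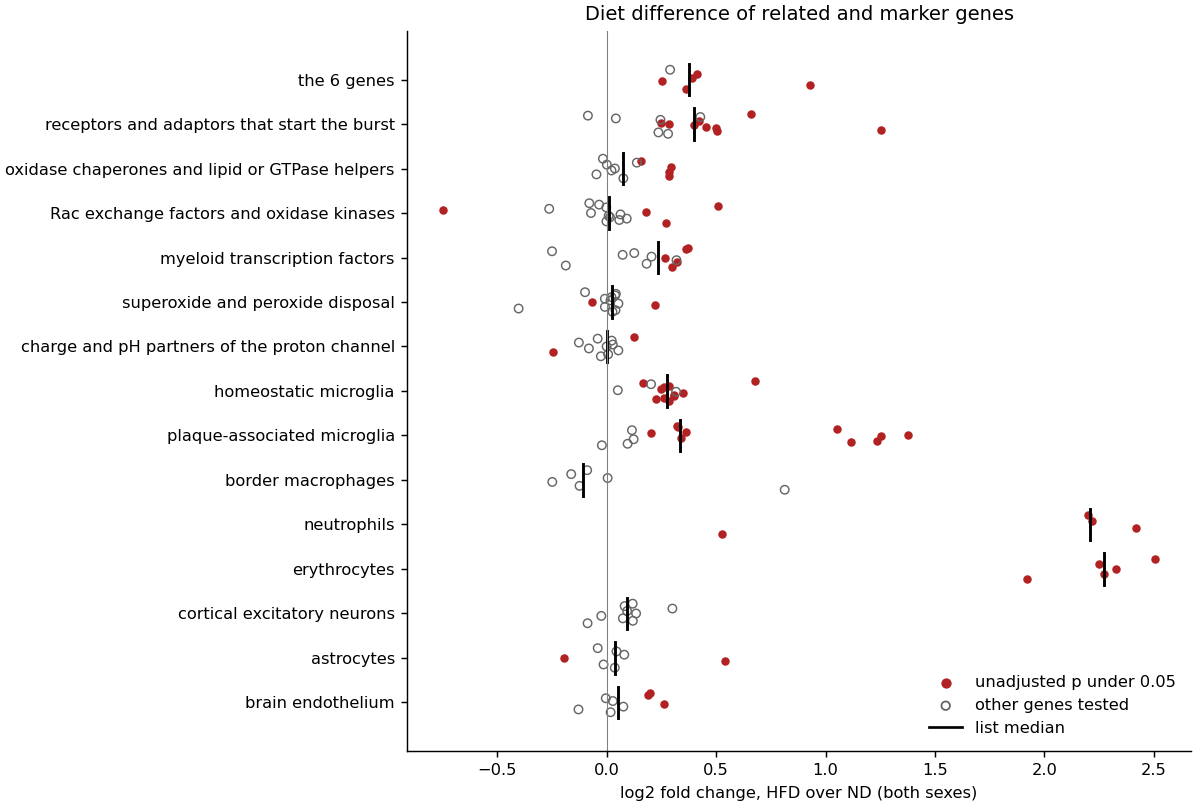
Log2 fold change of HFD over ND over both sexes (horizontal axis) of the genes of each list tested, red where the unadjusted p was under 0.05 and open otherwise, with the list median as a black line. The 6 genes (median 0.38), the receptors (0.40) and the microglia lists (0.28 and 0.33) lie to the right of 0, and disposal enzymes and pH partners lie around 0.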

How the data were processed

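The deposited counts are reads per gene from Subread 1.4.0 and featureCounts on mm9, and the deposited RPM are those counts divided by the library total and scaled by the authors to a common total. The table holds 14996 genes, all over 1 RPM in at least 2 libraries, with 99.16% to 99.23% of each total. All 38 value columns were used. Replicates are separate mice.

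Counts were tested with edgeR 4.0.16 in R 4.3.3 (quasi-likelihood, filterByExpr, TMM, robust dispersion with statmod 1.5.0, Benjamini-Hochberg over all genes tested). HFD was compared with ND within each sex and over both with a term for sex, and the interaction and the sex term were tested. The threshold was a p of 0.05, unadjusted as in the study, with adjusted p beside it. Log2 CPM used a prior count of 2. Alternatives used DESeq2 1.42.0 and limma 3.58.1 (voom, or log2 of RPM plus 1 or 0.1), other scaling, filters, covariates and omission of mice, and an exact permutation test of log2 CPM within sex, which was chosen once the data were known. The fits were tested on simulated counts. Exon lengths are from GENCODE M21. Figures used matplotlib 3.10.9 in Python 3.11.15.

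The 6 genes and all lists were chosen with earlier results of these data known. Named genes are the 6, up to 4 per list with the smallest p under 0.05 over both sexes, the 3 most correlated with each member, and Rac1; a few genes the rule takes are not reported here. BC017643, Spi1, Irf8, Sod1 to Sod3, Mrc1, Cd163, Fn1, Vcan, Cd4, Lck, Ltf and Tctn1 were named after their values were seen. The biological coefficient of variation was 10.7% over both sexes.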

Additional observations from a re-analysis of the deposited data

Results flagged for a closer look

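Cyba stood at 10.7 RPM in ND female A1092, and the gap to the next of the 6 ND females was 0.78 of the group's range, above the 95% critical value of Dixon's test. Cybb stood at 1.95 RPM in ND male F1080, with a gap of 0.849 of the range among 4 mice. These were the 2 of 24 combinations of gene and group past that value, and chance alone gives about 1 in 20.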

How the results depend on the processing

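Over both sexes the members called higher were 0 with the homeostatic microglia mean as a covariate, 3 with no term for sex and 3 to 6 when each mouse was left out in turn. With that covariate they were 2 in females, and leave-one-out gave 3 to 5 in females and 0 to 2 in males. Over all genes leave-one-out called 736 to 1083 higher over both sexes, 382 to 779 in females and 337 to 853 in males. DESeq2 passed 1 member at an adjusted p of 0.05 over both sexes, 1 in females and 5 for sex, and the covariate left 1 member higher in females than in males and 0 past an adjusted p, where leave-one-out gave 2 to 5. The share of all genes past an adjusted p in these fits was not counted. The interaction called 1 member (Hvcn1) with the covariate and 1 without A1092 and A1095, and 0 to 1 with each mouse left out. No other tool, scaling or filter moved a count of members by over 1.5 times.

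Some log2 fold changes changed sign. With the covariate they were −0.0619 for Cyba and −0.00914 for Rac2 over both sexes, −0.13 and −0.00655 in females, −0.0643 for Ncf1, −0.00319 for Rac2 and −0.25 for Hvcn1 in males, 0.0382 for the interaction of Cyba and −0.12 for Cyba by sex. In males limma on log2 RPM gave −0.00252 and −0.00979 for Rac2 and −0.000692 for Hvcn1, and without A1095 Hvcn1 was −0.0891. The interaction of Cyba was 0.0196 and 0.00729 in limma on log2 RPM, 0.0103 with library totals and 0.20 without A1092 and A1095. Hvcn1 by sex was 0.00655 in voom and 0.0372 without those mice. With single mice left out the ranges were −0.16 to 0.18 for the interaction of Cyba, −0.11 to 0.44 for that of Cybb, −0.0891 to 0.16 for Hvcn1 and −0.0655 to 0.19 for Rac2 in males, and −0.0865 to 0.0433 for Hvcn1 by sex. The cause was not tested.

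Over all genes, counts moved by over 1.5 times with the covariate (538 higher and 524 lower over both sexes, against 894 and 941; 223 and 238 in males, against 601 each), in limma on log2 of RPM plus 1 (907 lower in males) and with library totals (273 smaller interactions, against 423). They also moved without F1252 (382 higher in females, against 578), F1065 (347 and 392 in males), F1079 (337 and 379) or F1080 (677 smaller interactions).

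Ncf4 over both sexes missed an unadjusted p of 0.05 in DESeq2 (adjusted p = 0.418), in limma on log2 of RPM plus 1 (log2 fold change 0.19) and plus 0.1 (0.29), with the covariate and with no term for sex, Cyba missed it in those 2 as well, and Hvcn1 missed it without A1092 and A1095 (log2 fold change 0.20). Exact permutation within sex gave p = 0.0523 for Cyba. No paired analysis was possible because each mouse has its own number and diet. Counts of 5 to 37 reads limit Ncf4 and of 8 to 79 reads Cybb.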
